A study of Sus scrofa with 12 samples.

Results

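Transcripts of 6 genes whose proteins circulate in blood plasma, APOA1, APOE, CLU, HP, ITIH4 and RBP4, were followed in the ovaries of 12 pregnant sows. The genes were read by 8 of the 24123 probe sets of a porcine Affymetrix GeneChip, those whose only symbol in the array annotation is one of the 6, out of 10099 probe sets with a single symbol. APOE and RBP4 had 2 probe sets each and the other genes 1. The genes were chosen with their levels and those of albumin in these same sows in view, so all values set against albumin are a description and carry no test. The sows belonged to an F2 cross of the Iberian and Meishan pig breeds and were killed on day 30 of pregnancy. By estimated breeding value (EBV) 6 were labelled high prolificacy and 6 low prolificacy, and the study asks which ovarian transcripts differ between these groups. Each sow has 1 sample of whole ovary, described as an average of its right and left ovary, with no treatment named. Values are log2 expression after GCRMA, a background correction and normalization of the arrays, and a level above 4 is called measured here.

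In mammals most plasma proteins are secreted by hepatocytes, the main cells of the liver. Apolipoproteins coat lipoproteins and guide lipid between tissues. Clusterin and haptoglobin bind damaged proteins and free haemoglobin. Some inter-alpha-trypsin inhibitor heavy chains attach to the hyaluronan matrix, which is not said here of ITIH4. RBP4 carries retinol out of the liver. Several of these genes are also transcribed outside the liver: APOE in macrophages and steroid-making cells, clusterin in many tissues, haptoglobin in neutrophils and RBP4 in adipose tissue. In the ovary, lipoprotein cholesterol feeds progesterone synthesis in the corpus luteum, and the hyaluronan matrix forms around the oocyte at ovulation.

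Transcripts of 5 of the 6 genes were above 4 in all 12 sows, whereas RBP4 was above 4 in 2 sows only in its brighter probe set. In each sow 55.5% to 56.4% of all probe sets other than controls were above 4. RBP4 goes against a description of the 6 as plasma proteins made in the ovary itself. APOA1, APOE, CLU, HP and ITIH4 do not go against it by transcript level, but they were chosen with their levels in view. Their levels thus do not support that description, and which cells hold the transcripts was not tested. The levels tell of RNA in the sample, not of protein made or secreted. As these are whole ovaries, fewer cells of a type and less RNA per cell cannot be told apart. All 8 luteal markers looked for were above 4 in all 12 sows, led by the relaxin gene RLN2 at 15.10 and STAR, the mitochondrial cholesterol carrier, at 14.58. The arrays had alike medians, from 4.81 to 4.97, and rank correlations between sows from 0.974 to 0.993.

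Albumin, the most abundant hepatocyte product in plasma, divided the sows sharply. It stood at 8.67 in high 5, 12.61 in low 1, 8.80 in low 3 and 12.40 in low 4, against values from 2.04 to 3.33 with a median of 2.44 in the other 8 sows. The line at 6 thus ran between 8.67 in high 5 and 3.33 in high 2. Of the 4 sows above it, 1 was of the high and 3 were of the low prolificacy group, so albumin and group are partly mixed. A list of 39 liver-secreted proteins had 32 genes on the array, albumin and RBP4 among them. Of these, 25 were above 4 in low 1, 24 in low 4, 10 in low 3 and 9 in high 5, against 4 to 6 in each of the 8 sows with low albumin. In 26 of the 32, no sow of these 8 was above 4, and 19 of those 26 were above 4 in at least 1 of the 4 sows with high albumin.

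Genes of the liver cell's interior were also read. Of 19 hepatocyte enzymes and regulators on the array, out of 26 listed, 10 were above 4 in low 4 and 9 in low 1, against 1 or 2 in each of the other 10 sows. CYP2E1, a hepatic cytochrome P450, stood at 9.21 in low 4 and 8.94 in low 1, against 2.42 in high 5 and 3.35 in low 3. The urea cycle enzyme CPS1 stood at 6.72 in low 4 and 4.73 in low 1, 3.84 in low 3 and 2.47 in high 5, against 2.78 at most in the 8 sows with low albumin. The liver regulator HNF4A was under 4 in all 12 sows. The summed level of this list ran from 7.81 to 10.52 in the 4 sows with high albumin and from 7.31 to 8.46 in the other 8. The part of such transcripts in the levels given below was not tested.

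**Figure D1:**
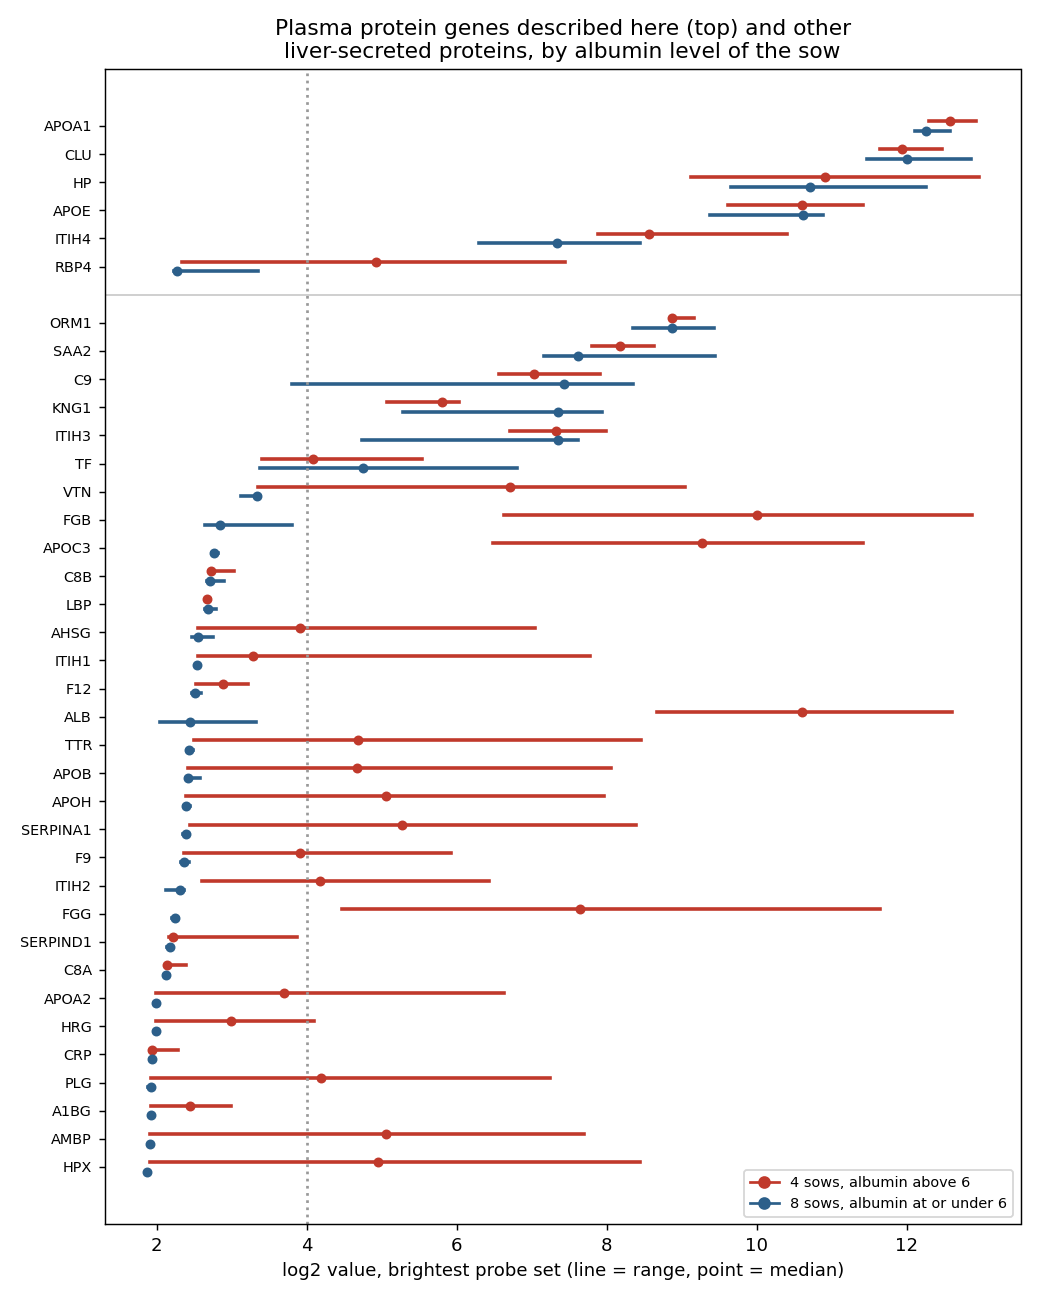
Log2 values of the brightest probe set of each gene in the 4 sows with albumin above 6 (red) and the 8 sows at or under 6 (blue), with the range as a line and the median as a point; the dotted line is the level of 4. APOA1, CLU, HP, APOE and ITIH4 lie right of the line in both sets of sows, RBP4 and most other liver-secreted proteins lie left of it in the 8 sows, and levels of different genes are not comparable with each other.

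APOA1, the main protein of high density lipoprotein, varied least of the measured genes. Its log2 level was lowest at 12.15, with a median of 12.26 and a highest value of 12.92, in high prolificacy sows, against 12.11, 12.47 and 12.69 in low prolificacy sows. The groups overlapped along most of their length, and high 5 was the highest sow of all. The whole range of 0.81 on the log2 scale is 1.76-fold, and its SD over the sows, 0.24, was larger than that of 37.5% of the 13390 probe sets tested. Set by albumin, APOA1 stood at 12.92 in high 5, 12.69 in low 4, 12.46 in low 1 and 12.30 in low 3, against 12.11 to 12.57 with a median of 12.26 in the other 8 sows. High 5 and low 4 lay above all 8, while low 1, with the highest albumin, lay inside their range.

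APOE, the ligand through which lipoprotein remnants bind their receptors, was bright in one probe set and at the floor in the other. In the bright probe set it ran from 9.62 over a median of 10.62 to 10.89 in high prolificacy sows, against 9.38, 10.51 and 11.42 in low prolificacy sows. The low group enclosed the high group at both ends. The sows with high albumin were spread over nearly the full range, at 11.42 in low 4, 10.94 in low 3, 10.28 in low 1 and 9.62 in high 5, against 9.38 to 10.89 in the 8 others. The median was 10.61 in the sows with high albumin and 10.62 in the others. The other probe set lay between 1.69 and 1.72 in all 12 sows, so it gave no reading.

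Other apolipoproteins were likewise mostly either measured in all sows or under 4 where albumin was low. APOD, a lipocalin that carries small lipids, was above 4 in all sows, with a mean of 10.80 ± 0.91 in the high group, against 10.61 ± 1.06 in the low group. APOA2, APOA4, APOB, APOC2, APOC3 and APOH were under 4 in all 8 sows with low albumin. APOB, the structural protein of very low density lipoprotein, stood at 8.06 in low 4 and 6.92 in low 1, against 2.57 at most in the other 10 sows. APOC3, an inhibitor of lipoprotein lipase, followed albumin in all 4 sows, at 11.42 in low 4, 10.89 in low 1, 7.65 in low 3 and 6.49 in high 5, against 2.74 to 2.82 in the rest. Of the 16 genes on the array from the list of apolipoproteins and high density lipoprotein exchange, 6 were tested by prolificacy, of which 2 were higher, 4 were lower and 0 passed. The brightest were the lipoprotein receptor SCARB1, which takes up cholesterol esters, with a difference of -0.13, APOD with 0.19 and lipoprotein lipase, LPL, with -0.15. The cholesterol exporter ABCA1 differed by -0.75, and by 0.02 without high 2, which stood at 3.45. The phospholipid transfer protein PLTP differed by 0.22. The sign also turned without high 3 for SCARB1, at 0.01, and for LPL, at 0.05, and without low 2 for APOD, at -0.13, or high 3. Of 7 lipoprotein receptor genes on the array, 5 were above 4 in all sows, among them LRP8, the apolipoprotein E receptor 2, with a mean of 11.46 and a difference of 0.17, which was -0.14 without high 1 and turned without low 3 too. The chaperone of such receptors, LRPAP1, averaged 11.59 and the very low density lipoprotein receptor VLDLR 10.69.

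Clusterin, CLU, an extracellular chaperone that also blocks the terminal complement complex, was bright in every sow. Its level ran from 11.48 over a median of 11.87 to 12.44 in high prolificacy sows, against 11.73, 12.02 and 12.86 in low prolificacy sows. Low 5 was the highest and high 4 the lowest, and the groups overlapped. The 4 sows with high albumin, at 12.47 in low 1, 12.02 in low 4, 11.85 in low 3 and 11.64 in high 5, all lay within the range of the other 8, from 11.48 to 12.86. Of 13 genes of the terminal complement and chaperone list on the array, 7 were tested by prolificacy, 5 higher and 2 lower, and 0 passed. Alpha-2-macroglobulin, A2M, a protease trap, was the brightest with a mean of 13.42, followed by the chaperone HSPA5 at 12.77 and CD59, which stops assembly of the complement pore, at 12.28. CD59 differed by 0.29, complement C7 by 0.50 and C9 by -0.50. The C9 difference was 0.08 without high 3, at 3.80, while the other high prolificacy sows lay between 6.31 and 8.36. C7 differed by 0.19 without low 2. Vitronectin, VTN, another inhibitor of the complex, was under 4 in all 8 sows with low albumin and stood at 9.05 in low 1, 8.18 in low 4, 5.24 in low 3 and 3.35 in high 5.

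Haptoglobin, HP, which binds free haemoglobin and rises in plasma during the acute phase response, had the widest gap between the prolificacy groups of the 5 genes measured in all sows. It stood at 9.13, 9.66, 10.21, 10.31, 10.61 and 12.17 in high prolificacy sows, against 10.11, 10.82, 11.70, 12.08, 12.26 and 12.96 in low prolificacy sows. In the high group 5 of 6 sows lay below the low group's median of 11.89, and high 2 lay above it. The groups overlapped, since 4 sows of the low group, low 1, low 2, low 3 and low 6, lay under high 2. From high 5 to low 4 the range was 14.2-fold, and the SD of 1.20 was larger than that of 98.8% of probe sets tested. By albumin there was no order: low 4 at 12.96 was the highest and high 5 at 9.13 the lowest of all 12 sows, with low 1 at 11.70 and low 3 at 10.11, against 9.66 to 12.26 in the other 8. Medians were 10.91 in the sows with high albumin and 10.71 in the others.

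Haemoglobin and haem handling genes are given beside HP. Of 11 on the array, 9 were tested, 3 higher and 6 lower in high prolificacy sows, and 0 passed. The ferritin chains FTH1 and FTL, which store iron, averaged 14.35 and 14.13 and differed by -0.01 and -0.11. CD163, the macrophage receptor for the haptoglobin complex, ran from 7.50 to 10.01 in high prolificacy sows, against 7.33 to 9.05 in low prolificacy sows, and differed by 0.53. The beta globin HBB averaged 9.55, with a difference of -0.25, transferrin, TF, differed by 0.78 and haem oxygenase 1, HMOX1, by 0.35, which was -0.06 without high 2. Haemopexin, HPX, the plasma carrier of haem, was under 4 in all sows but low 4 at 8.44 and low 1 at 7.77. Of 6 neutrophil markers on the array, whose cells also make haptoglobin, 0 were measured in enough sows to test. Of the 6, 4 were under 4 in all 12 sows, among them the granule genes ELANE, LTF and MMP9. In each of high 2, high 5, low 2 and low 6, 1 marker was above 4, and elsewhere 0 were. HP stood at 12.17, 9.13, 12.08 and 10.82 in these sows. The summed level of the 6 ran from 4.82 to 6.89 in high and from 4.86 to 5.53 in low prolificacy sows. The part of neutrophils in the HP level was not tested. Of acute phase regulators, IL6 and its receptor IL6R were under 4 in all 12 sows. Of 13 genes of this list on the array, 6 were tested, 4 higher and 2 lower in high prolificacy sows, and 0 passed. The lower ones were the transcription factor CEBPB, which averaged 12.33 with a difference of -0.29, and STAT3, which relays interleukin 6 signals, 10.41 with -0.04. The higher ones were JAK2 by 0.24, CEBPD by 0.23, IL1R1 by 0.17 and NFKBIA by 0.14. Without high 2 the sign turned for JAK2, CEBPD and IL1R1.

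ITIH4, an inter-alpha-trypsin inhibitor heavy chain of the acute phase, was measured in all sows with a wide spread. Its level ran from 6.30 over a median of 7.76 to 9.24 in high prolificacy sows, against 6.61, 7.89 and 10.40 in low prolificacy sows. The groups overlapped, and the lowest and highest sows, high 3 and low 4, were 17.2-fold apart. The SD of 1.16 was larger than that of 98.6% of probe sets tested. By albumin, ITIH4 was 10.40 in low 4, 9.24 in high 5, 7.90 in low 1 and 7.89 in low 3, against 6.30 to 8.44 with a median of 7.34 in the other 8 sows. Low 4 and high 5 lay above all 8, and low 1 and low 3 above 5 of them. The median of the 4 sows was higher by 1.22, or 2.33-fold, but low 1, with the highest albumin, lay under high 4, high 6 and low 5, whose albumin was 2.46 at most.

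The family of ITIH4 was divided. ITIH3 and ITIH5, other heavy chains, were above 4 in all 12 sows. ITIH3 ran from 4.73 to 7.85 in high and from 6.14 to 7.99 in low prolificacy sows. AMBP, which encodes the bikunin chain that the family is named for, was under 4 in all sows but low 1 at 7.70 and low 4 at 7.36. ITIH1 stood at 7.78 in low 1 and 4.02 in low 4, and ITIH2 at 6.43 and 5.67, against 2.69 at most in the other 10 sows for either gene. A list of this family and the hyaluronan matrix, which leaves out ITIH4 itself, had 14 genes on the array. Of these 6 were tested by prolificacy, all 6 were higher in high prolificacy sows and 0 passed. Over all 13390 probe sets tested 6368 were higher. The median difference of the 6 was 0.27, beside -0.010 over all probe sets tested. ITIH4 differed by -0.24, with a sign that depended on the sows taken, so no opposite direction is read from it. The brightest were the long pentraxin PTX3, of the cumulus matrix, with a difference of 0.36, the proteoglycan versican, VCAN, with 0.46 and ITIH5 with 0.12. The hyaluronidase HYAL2 differed by 0.49. ITIH5 differed by 0.002 only without low 2, and ITIH3 by 0.17, or 0.02 without low 6. TNFAIP6 differed by 0.03, and its sign turned without any 1 of high 5, high 6, low 1, low 2 and low 6.

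RBP4, the plasma carrier of retinol, was not measured in the 8 sows with low albumin. Its brighter probe set stood at 7.44 in low 4, 6.84 in low 1, 3.02 in low 3 and 2.34 in high 5, against 2.24 to 3.35 with a median of 2.27 in the other 8. Low 1 and low 4, the sows of highest albumin, stood apart, and high 3 was the next. Its second probe set stood at 4.59 in low 4, 3.61 in high 5, 2.82 in low 1 and 2.82 in low 3, against 2.20 to 3.16 in the other 8. The probe sets thus parted in low 1, where the first read 6.84 and the second 2.82. Transthyretin, TTR, the partner of RBP4 in plasma, followed the brighter probe set, at 8.46 in low 1 and 6.71 in low 4, against 2.66 at most elsewhere. Of the 13 genes of retinol carriage and retinoic acid on the array, 7 were under 4 in all 12 sows. The 4 tested by prolificacy, 2 higher and 2 lower, gave 0 that passed. The retinal reductase RDH11 averaged 13.05 with a difference of -0.08, or 0.06 without high 3, and ALDH1A1, which makes retinoic acid, 10.81 with 0.29. Of 6 adipocyte markers on the array 3 were under 4 in all 12 sows, namely adiponectin, ADIPOQ, leptin, LEP, and CIDEA. PPARG, a transcription factor that adipocytes share with other cells, was above 4 in all 12 with a difference of 0.53, the fatty acid carrier FABP4 in 3 and the lipase LIPE in 1.

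**Figure D2:**
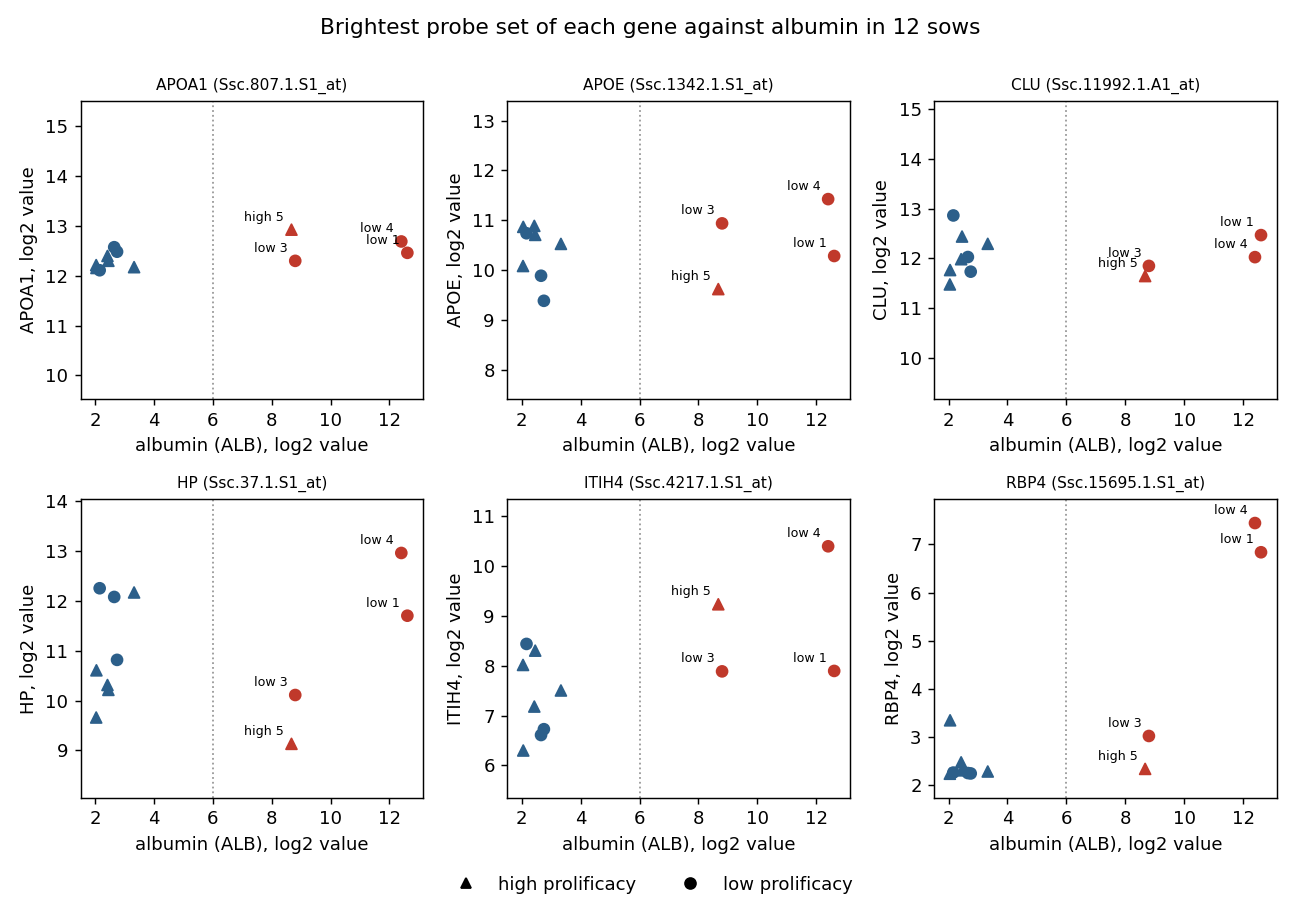
Log2 value of the brightest probe set of each of the 6 genes (vertical) against albumin (horizontal) in 12 sows, triangles for high and circles for low prolificacy; the dotted line is albumin at 6 and each vertical axis spans at least 6 units. RBP4 is lifted in low 1 and low 4 only, at 6.84 and 7.44, while CLU and APOE in the 4 sows with high albumin are spread over or near the range of the other 8.

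Across the 2 sets of sows divided by albumin, 0 of the 8 probe sets separated without overlap, where 0.127% of probe sets tested did. All 4 sows with high albumin lay above all 8 others in 0 of them, beside 0.0373% of probe sets tested. Since the genes were chosen on this division, nothing is read from that count. The median of the sows with high albumin was higher by 1.22 for ITIH4, 0.32 for APOA1 and 0.20 for HP. For APOE and CLU it was lower by 0.01 and 0.07. For RBP4 no such difference is given, since 8 sows lay at the floor and the 4 others were 2 bright sows and 2 near the floor.

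By prolificacy, no probe set of the 6 genes passed the test. High and low prolificacy sows were compared with limma, a linear model with moderated variances, with p adjusted by Benjamini-Hochberg over all 13390 probe sets above 4 in at least 6 sows. The 5 probe sets of APOA1, APOE, CLU, HP and ITIH4 that passed this filter gave 0 calls, with 0% of all probe sets called. With array weights the count was again 0, and likewise with trend and robust moderation. Before adjustment 755 of all probe sets had p under 0.05, and 2178 had with the actin measure of RNA integrity, given below for HP, as a covariate, where 0 passed after adjustment. Of the 5 probe sets 4 were lower and 1 was higher in high prolificacy sows, with a median difference of -0.23, beside 52.4% lower and a median of -0.010 over all probe sets tested. The values of the groups overlapped in all 8 probe sets of the 6 genes, where 0.471% of probe sets tested did not overlap.

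The mean of HP was 10.35 ± 1.04 in the high group, against 11.66 ± 1.03 in the low group (SD, n = 6 each), and the difference was -1.31 or 2.47-fold (95% interval -2.47 to -0.14, limma unadjusted p = 0.0304, adjusted p = 0.835). In the 8 sows with low albumin, 5 high and 3 low, the difference was -1.12 (interval -2.40 to 0.15, limma adjusted p = 0.892). The 3' minus 5' difference of the actin control transcripts, which grows as RNA breaks down, was 2.59 ± 0.45 in the high group against 2.12 ± 0.13 in the low group, and with it as a covariate the HP difference was -1.78. Of the 12 sows high 2, with the highest HP of the high group, had the highest actin measure, at 3.23. It was also the highest in a second actin pair, at 1.26, and in the control transcript GAPDH, at 2.34. The actin pairs parted in high 4, next to the highest at 2.98 in the one used and lowest at 0.09 in the second. The part of RNA integrity in the difference was not tested.

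In APOA1, APOE, CLU and ITIH4 the difference was smaller than the SD of either group. The mean of APOA1 was 12.36 ± 0.29 in the high group, against 12.43 ± 0.20 in the low group, with a difference of -0.08 (interval -0.39 to 0.24, limma adjusted p = 0.985), and it was -0.19 without high 5 and 0.04 with albumin as a covariate. APOE in its bright probe set averaged 10.45 ± 0.50 in the high group and 10.44 ± 0.74 in the low group, a difference of 0.01 (interval -0.72 to 0.73, limma adjusted p = 0.999). Among the 8 sows with low albumin it was 0.61 (interval -0.10 to 1.32, limma adjusted p = 0.892). High 5, the lowest of the high group, and low 3 and low 4, the highest of the low group, are among the sows left out there. CLU averaged 11.93 ± 0.38 in the high group and 12.16 ± 0.42 in the low group, a difference of -0.23 (interval -0.70 to 0.24, limma adjusted p = 0.937), and it was -0.09 without low 5 and -0.14 without high 4. ITIH4 averaged 7.76 ± 1.01 in the high group and 7.99 ± 1.38 in the low group, a difference of -0.24 (interval -1.59 to 1.12, limma adjusted p = 0.988). Its sign depended on the sows taken, at 0.24 without low 4, -0.53 without high 5 and 0.20 in the 8 sows with low albumin. These intervals leave room for differences over 2-fold in HP and ITIH4 and bound those of APOA1 to 0.39 on the log2 scale.

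RBP4 and the dim APOE probe set did not pass the filter, and their values come from the fit with no filter on 23999 probe sets. For RBP4 the brighter probe set had a mean of 2.50 ± 0.42 in the high group, against 4.01 ± 2.45 in the low group, with a difference of -1.51 (interval -3.66 to 0.63, limma adjusted p = 0.9999). It was -0.83 without low 4, -0.95 without low 1 and 0.28 in the 8 sows with low albumin. The second RBP4 probe set averaged 2.94 ± 0.40 in the high group and 3.01 ± 0.81 in the low group, a difference of -0.08. In the low prolificacy sows with low albumin the brighter probe set lay between 2.24 and 2.26, at a floor where a difference in level cannot be read.

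**Figure D3:**
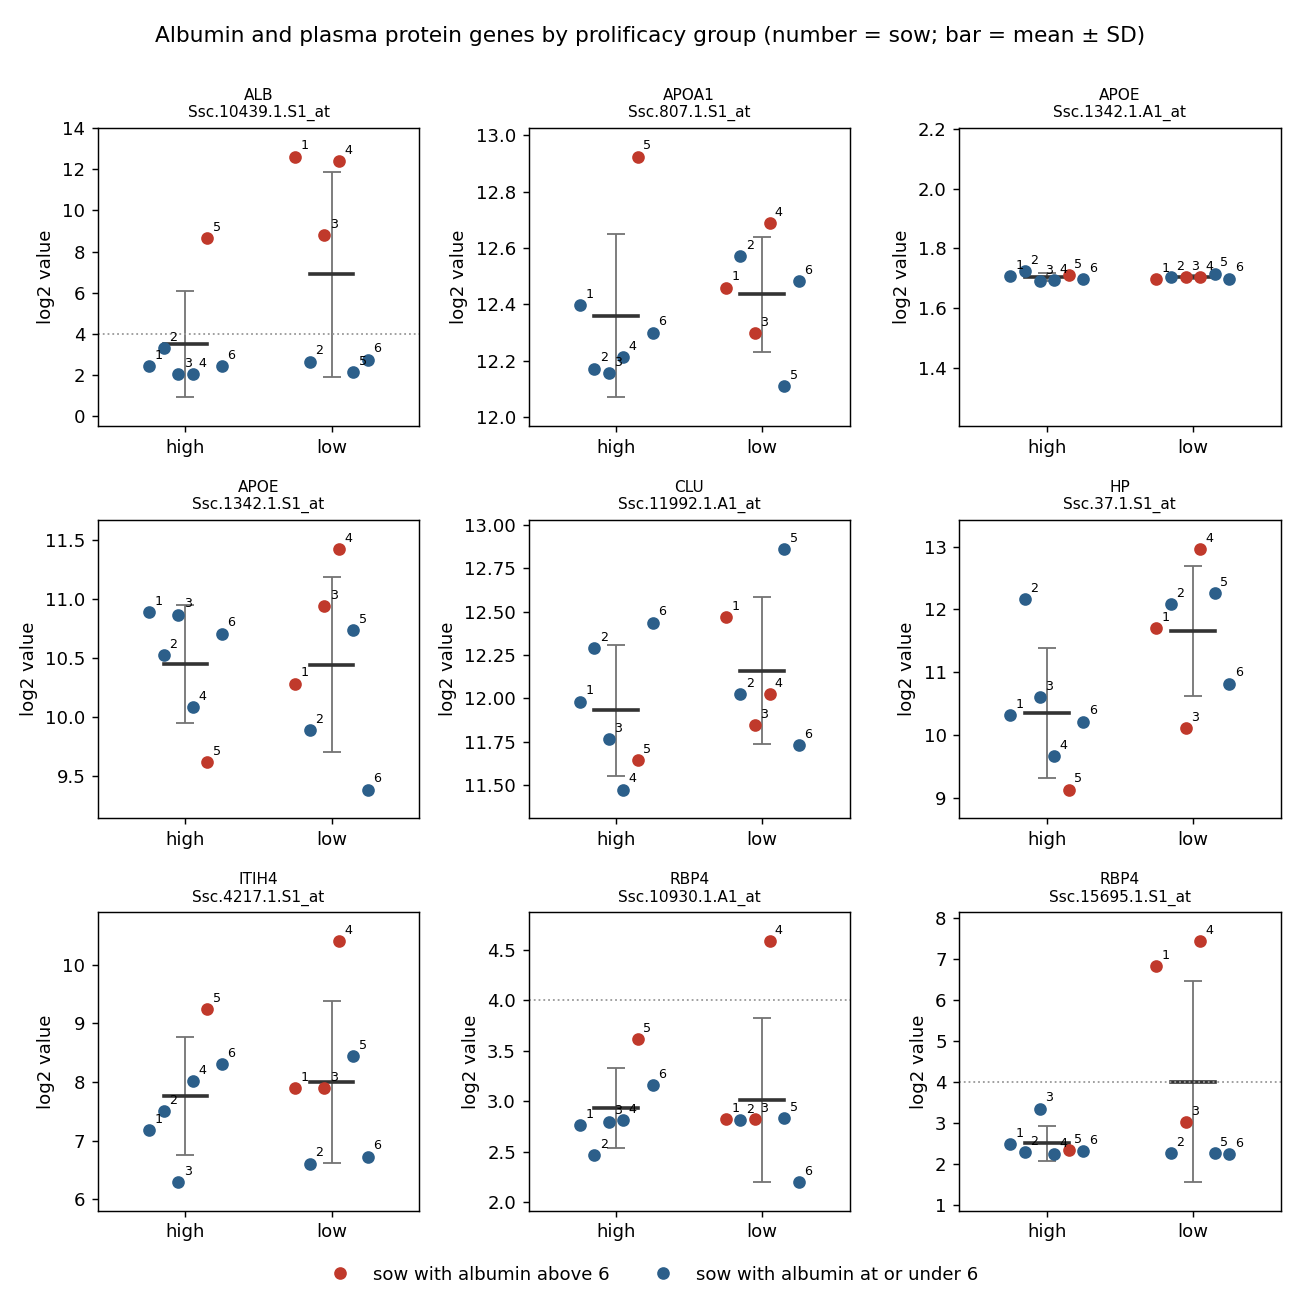
Log2 values of albumin and of the 8 probe sets of the 6 genes in each sow, high prolificacy left and low prolificacy right, with the group mean and SD as bars, the number of the sow beside its point and its albumin level as colour; vertical axes differ between panels and the dotted line is the level of 4. In HP 5 of 6 high prolificacy sows lie below the low group's median of 11.89, and in the brighter RBP4 probe set only low 1 and low 4 lie above 4.

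**Figure D4:**
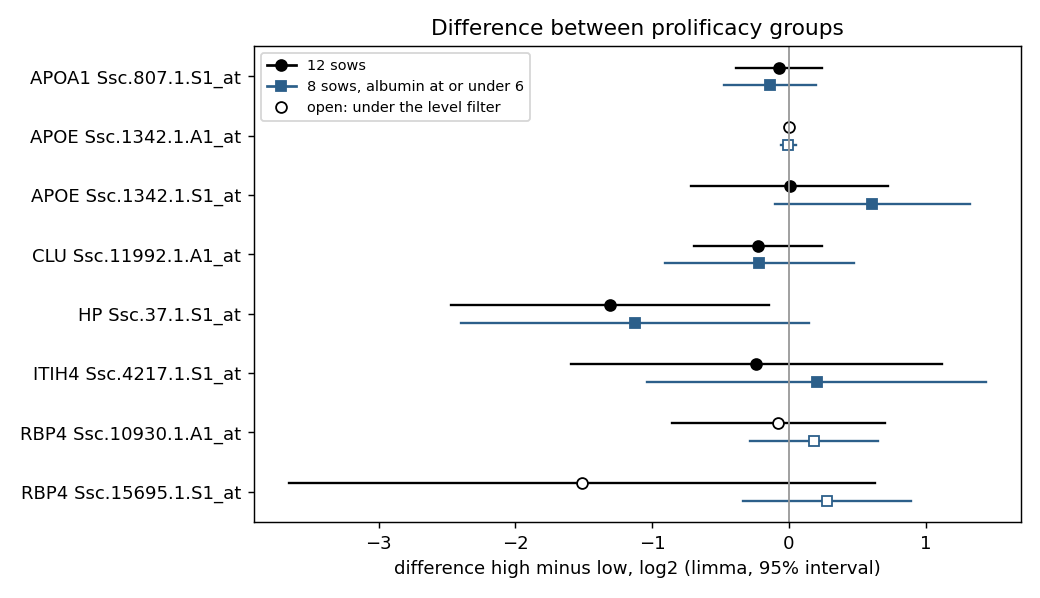
Difference of high minus low prolificacy on the log2 scale with its 95% interval from limma for each probe set, in all 12 sows (black) and in the 8 sows with albumin at or under 6 (blue, 5 high and 3 low); open symbols mark probe sets under the filter. HP stands at -1.31 and -1.12, APOE at 0.01 and 0.61, and the brighter RBP4 probe set at -1.51 and 0.28.

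Correlations are given as a description, without a test, over the brightest probe sets in 12 sows that share a tissue and an array type. RBP4 was left out, since its sows fall into separate clusters and no correlation with the other 5 genes is given. Among the 10 pairs of the other 5 genes, Pearson's r ran from -0.35 to 0.59 and 7 were positive. The highest was CLU with HP, at r = 0.59 and Spearman's rho = 0.65, and r was 0.44 without the sows farthest from the CLU median, which were 2. In the 8 sows with low albumin CLU and HP gave r = 0.62 and rho = 0.55. APOA1 ran against APOE, with r = -0.35 in 12 sows and -0.62 in the 8. APOA1 and ITIH4 gave r = 0.44 in 12 sows and -0.49 in the 8.

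The genes whose pattern over the 12 sows was most like each of the 6 were picked by Pearson's r among 6818 probe sets with 1 symbol that were above 4 in at least 3 sows. For RBP4 they were VTN, the cytochrome P450 CYP2C33 and the fibrinogen chain FGG, with no r given since its sows fall into clusters. All 4 genes were under 4 in the 8 sows with low albumin, so VTN, CYP2C33 and FGG were in the pool only through sows with high albumin. The likeness rests on low 1 and low 4, the only sows with RBP4 above 4, and cannot be read in the others. In low 3 RBP4 stood at 3.02, against 5.24 for VTN, 5.73 for CYP2C33 and 5.61 for FGG. For HP they were LITAF, an endosomal protein induced by lipopolysaccharide, at r = 0.81, the phosphatase PTP4A2 at 0.79 and the sulfurtransferase TST at 0.79, and in the 8 sows with low albumin r was 0.78, 0.75 and 0.73. For CLU they were the protease ADAMDEC1 at 0.87, the ubiquitin ligase subunit FBXW7 at 0.86 and coagulation factor F5 at 0.79. For APOE they were HACD4, of fatty acid elongation, at 0.87, the chemokine CCL24 at 0.85 and the glucocorticoid receptor NR3C1 at 0.85. For APOA1 they were C5H12orf57 at 0.81, the caveolar protein CAVIN2 at 0.77 and the small GTPase RHOJ at 0.75. For ITIH4 they were EF1ALPHA at 0.86, the glycerol kinase GK at 0.84 and the lipopolysaccharide receptor CD14 at 0.83. In the 8 sows with low albumin, in the order named, r was 0.92, 0.86 and 0.89 for CLU and 0.78, 0.80 and 0.88 for APOE. It was 0.85, 0.66 and 0.44 for APOA1 and 0.68, 0.84 and 0.72 for ITIH4. The values over 12 sows are the highest of 6818, so high r is assured by the choice.

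Markers of the other cells an ovary holds are given for comparison by prolificacy. Of 10 macrophage markers on the array 9 were above 4 in all 12 sows, 6 higher and 3 lower in high prolificacy sows with 0 passing, and ITGAM was under 4 in all. Their summed level ran from 10.96 to 12.25 in high and from 10.84 to 11.69 in low prolificacy sows. Summed luteal markers ran from 16.40 to 17.14 in high and from 16.76 to 17.03 in low prolificacy sows, with 2 higher and 6 lower. Granulosa and follicle markers ran from 9.21 to 13.77 in high prolificacy sows, against 10.34 to 13.47 in low prolificacy sows. All 5 tested were lower, beside 52.4% of all probe sets tested. Without high 4 the difference of INHA went from -0.29 to 0.58 and that of FST from -0.11 to 0.18. CYP19A3, HSD17B1 and INHBA kept their sign with any 1 sow left out. Endothelial markers ran from 11.02 to 12.10 in high prolificacy sows, against 11.23 to 11.42 in low prolificacy sows, with 5 higher and 3 lower. Smooth muscle and fibroblast markers ran from 14.01 to 15.25 in high prolificacy sows, against 14.06 to 15.04 in low prolificacy sows, with 5 higher and 3 lower. Of the 3 erythroid markers tested 1 was higher and 2 were lower, and both surface epithelium markers tested were lower. No marker of these lists passed the limma test.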

How the data were processed

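RNA of 12 ovary samples was hybridised to porcine Affymetrix GeneChips, 1 array per sow. GCOS and GCRMA are named per the submitters' processing notes, with no version or setting. The authors' deposited table was read as log2 values, a scale judged from its range of 0.97 to 15.34. Groups and animal numbers came from the sample titles. Symbols came from the array annotation, and all 6 kept theirs in RefSeq by Entrez ID. No genome build is named, so no coordinates are given.

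The 124 control probe sets were left out. Probe sets above 4 in at least 6 sows were tested with limma 3.58.1 in R 4.3.3, high minus low, two-sided, adjusted at 0.05, without covariates. Same-numbered sows are different animals. Their deviations from the group means correlated from -0.46 to 0.17, so the numbers were not taken as pairs. Nothing says how the tissue was handled in batches, and the p-values measure the spread between these sows. Names in a block of 62 porcine controls were found displaced by 21 places and were moved back for the actin measure, which lowered the mean gap to their twin controls to 0.49 as moved, against 5.17 as named. The steps were tested on simulated data.

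The members and lists were chosen with earlier results of these data known. A list uses the brightest probe set of each gene, and summed levels are the log2 of summed linear values. The naming rule took all probe sets of the 6 genes, the 3 genes most like each, and of each list up to 3 of the highest mean and 2 of the largest difference. Genes named as absent or as following albumin were chosen after their values were seen.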

Additional observations from a re-analysis of the deposited data

Results flagged for a closer look

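In 18 groups of 6 sows (albumin and the 8 probe sets, in each prolificacy group), the highest and the lowest sow were compared with the others by Dixon's ratio. In 4 groups 1 sow stood apart. Chance flags about 1 group in 20, but albumin and these genes were chosen with their levels in view, so the number of groups is a description and supports nothing. Albumin stood at 8.67 in high 5, against 3.33 in the next highest high prolificacy sow. APOA1 stood at 12.92 in the same sow, against 12.40 in the next highest of its group. The second RBP4 probe set stood at 4.59 in low 4, against 2.83 in the next highest low prolificacy sow. The brighter RBP4 probe set stood at 3.35 in high 3, against 2.47 in the next highest of the high group, both under the level of 4. The ratio takes 1 sow at a time, so low 1 and low 4, which stand together in albumin and in the brighter RBP4 probe set, were not picked out by it.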

How the results depend on the processing

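In these alternatives none of the 8 probe sets of the 6 genes passed. They were no filter or a level of 6, quantile normalization, median centring, the animal number as replicate block, trend and robust moderation, array weights, albumin or the actin 3' difference as a covariate, 8 sows without the high albumin ones, and leaving out each sow. Of all probe sets 0 passed in the same alternatives, except that leaving out 1 sow gave from 0 to 1, the 1 without low 1. The animal numbers did not pair the sows. Each number holds 1 high and 1 low sow, so the replicate block could not change a difference, with HP at -1.31, and it changed no call. No filter, a level of 6 and trend and robust moderation could not change a difference either, only its p. HP kept its sign throughout, from -1.67 to -1.04 with 1 sow left out and from -1.78 to -1.12 otherwise, with adjusted p from 0.244 to 0.9999. CLU did so from -0.33 to -0.09 and from -0.37 to -0.11. The sign turned, with the cause not tested, in the following. For the dim APOE probe set, at the floor in all sows, and for RBP4, under 4 in most, a sign has no meaning and the values are given for completeness. With albumin as a covariate the difference was 0.0442 for APOA1, 0.43 for ITIH4, 0.27 for the second RBP4 probe set and -5.1e-06 for the dim APOE probe set. With array weights it was -0.0656 for the bright and -0.0011 for the dim APOE probe set and 0.0598 for the second RBP4 probe set. With the actin covariate it was -0.0087 for the dim APOE probe set and 0.0657 for the second RBP4 probe set. In the 8 sows with low albumin it was 0.20 for ITIH4, 0.18 for the second and 0.28 for the brighter RBP4 probe set and -0.0033 for the dim APOE probe set. With 1 sow left out, bright APOE ran from -0.21 to 0.20, dim APOE from -0.0042 to 0.0029, ITIH4 from -0.53 to 0.24 and the second RBP4 probe set from -0.24 to 0.24. Before adjustment, the probe sets with p under 0.05 numbered 2178 with the actin covariate, against 755 without it. Leaving out each sow for the genes of the lists was chosen after seeing the data, and turned the sign also for LRPAP1, STAT3 and FTH1. It did so for many list genes whose turn is not given above, among them STAR, PTGFR, CDH5, PECAM1, TAGLN, C1QA and SAA2. The counts of list genes as higher or lower thus depend in part on single sows. The albumin line at 5 or 7 gave the same sows. The number of sows limits these results, since half-widths of the 95% intervals had a median of 0.35 over the 13390 probe sets.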
